A study of Mus musculus with 19 samples.

Results

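The limb bud deletion of the CTCF sites named i4 and i5 was compared with wild type limb over every pair of 10 kb bins of a captured region around the mouse gene Shh. The comparison takes 5 of the series' 19 samples and 2 of its 9 merged maps, chosen by the names of the maps, and covers 39340 bin pairs. The i4i5 group holds 2 samples of E10.5 embryonic limb bud with genotype deltaCTCF i4i5 and strain G4, which the series design calls technical replicates. The wild type group holds 3 limb bud samples of the same stage and strain C57BL/6, called biological replicates, of which 2 carry the same library number. All of the i4i5 group is G4 and all of the wild type group is C57BL/6, so genotype and strain cannot be told apart in this pair of maps. Maps of E10.5 limb buds of strain G4 with a deletion of an element named ZRSreg (2 samples) or of the Lmbr1 promoter (2 samples) are given beside it. So are E10.5 limb bud maps of strain G4 with genotype deltaCTCF i4i5ZRS (2 samples) and delta-CTCF i4i5ZRSreg (2 samples), the second of them written i4i5 plus ZRSreg. Whole limb buds were used, so each map averages over all of their cell types.

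Shh encodes the secreted protein Sonic hedgehog, which patterns the limb bud from its posterior margin. Its limb enhancer, the ZRS, lies in an intron of the distant gene Lmbr1, at the far end of a long gene desert. CTCF is a DNA-binding protein that stops the cohesin complex while it extrudes a chromatin loop, and sites bound by it sit at many loop anchors and domain borders. Capture Hi-C counts pairs of DNA ends that were ligated to each other in fixed nuclei within a chosen region. A domain in such a map is a stretch whose bins meet each other more often than they meet bins outside it.

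The samples of each group were merged by the authors before deposit. No spread between replicates can be computed, no test was made and no p-value is given. The i4i5 map held 1177173 contacts and the wild type map 2862106, recovered from the balanced signal, with a median of 10 and 21 contacts per bin pair. Pairs with no signal made up 3.24% of the i4i5 map and 0.958% of the wild type map. Values are observed over expected, which divides the balanced signal of a bin pair by the average of all pairs equally far apart on that map. This measure averages 1 at each separation, so a higher value in one place goes with a lower one elsewhere at that separation. Differences are log2 ratios of i4i5 over wild type, with exact 95% intervals from the contacts. The intervals describe counting error between 2 merged libraries and not the spread of a genotype, and without molecular identifiers they may be too narrow.

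Positions are distances from the bin that holds most of the Shh promoter, chr5:28790001-28800000 in the mm9 build, and genes increase from Insig1 below Shh to Dnajb6 above it. The windows used for the ZRS (830 to 870 kb) and for the genes were placed from general knowledge of the locus, not from an annotation of this build. Insulation, the log2 mean signal across a bin in a square of 10 by 10 bins over its mean along the map, had its minima at -30 kb and 910 kb in both maps. These were taken as the borders of the Shh domain, which holds 93 bins from -20 to 900 kb. The upper border bin is also the window of the Lmbr1 promoter.

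The promoters of Lmbr1, in the border bin, and of Mnx1, in the bin above the border that the Shh promoter met most in i4i5, are shown as landmarks of the contacts that follow. The sequences are RefSeq's, in build GRCm38.p6 and not the build of the maps, and run over the 250 bases before the annotated start. Both genes are on the minus strand, with intervals chr5:29378391-29378640 for Lmbr1 and chr5:29478471-29478720 for Mnx1. Capitals would mark AGGGGGC, a short form of the core of the CTCF motif, on either strand.
Lmbr1: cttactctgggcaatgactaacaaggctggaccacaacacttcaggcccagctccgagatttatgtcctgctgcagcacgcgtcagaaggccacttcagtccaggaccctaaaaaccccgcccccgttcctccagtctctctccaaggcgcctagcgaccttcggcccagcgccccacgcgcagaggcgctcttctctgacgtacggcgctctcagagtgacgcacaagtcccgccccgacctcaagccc
Mnx1: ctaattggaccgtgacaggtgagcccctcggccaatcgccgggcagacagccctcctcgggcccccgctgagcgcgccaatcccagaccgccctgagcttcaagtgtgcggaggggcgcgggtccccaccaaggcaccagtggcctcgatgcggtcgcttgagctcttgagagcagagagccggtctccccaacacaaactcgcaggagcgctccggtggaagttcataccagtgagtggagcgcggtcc
Neither held a match, nor did any of the 11 entries for the 9 of 11 named genes found in the table, which leaves out Shh and En2. Of all 32851 promoters in the table, 9.43% held it in the same window. No match says only that these letters are not in this window. This form was the second one searched: a longer form with open positions, searched first, matched the Nom1 promoter and neither of those shown, so the absence of matches depends on the form chosen.

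**Figure D1:**
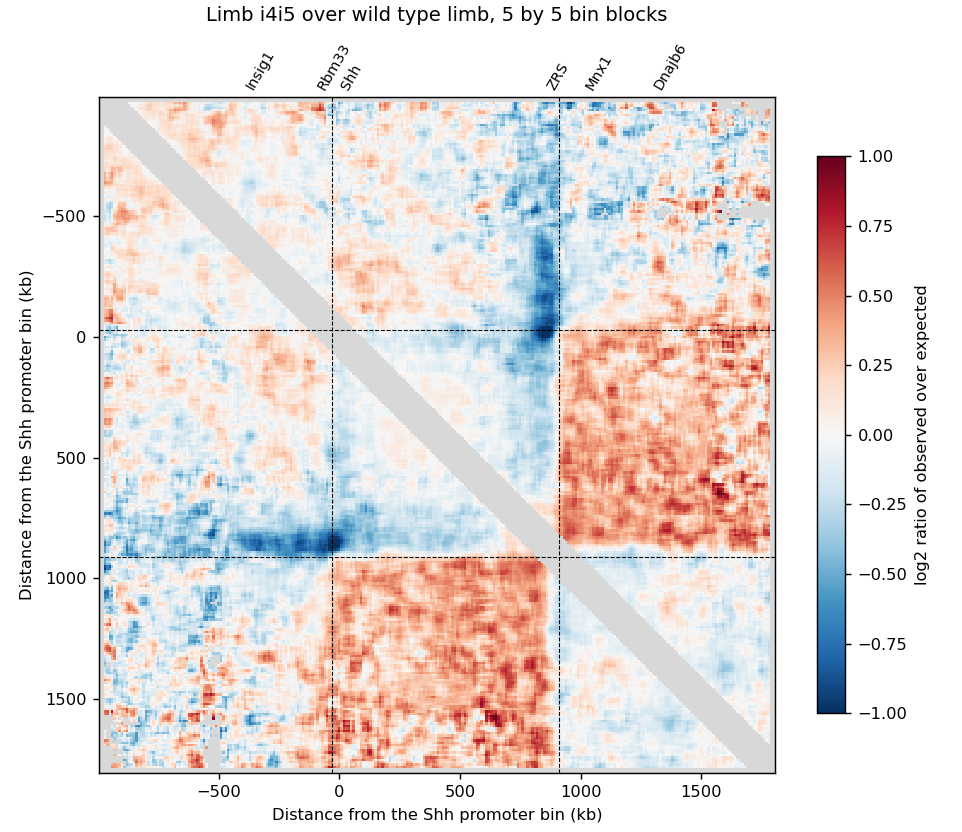
Log2 ratio of observed over expected, limb i4i5 over wild type limb, for 5 by 5 bin blocks at separations of 100 kb or more with at least 25 contacts in both maps (grey: not measured). Both axes are distances from the Shh promoter bin and the dashed lines are the domain borders. Blocks between the domain and the stretch above it form a square of higher values, and a stripe of lower values runs along the top end of the domain towards Shh and beyond the lower border.

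The i4i5 map differed from wild type in a square and a stripe. The square joins the Shh domain to everything above its upper border, where contacts were higher in i4i5. The stripe joins the top end of the domain, around the ZRS, to the Shh end and to the genes below the lower border, where contacts were lower in i4i5. Elsewhere the maps differed little, as the plot of log2 ratios by block shows.

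The classes of bin pairs that contain these 2 features held most of the blocks of 5 by 5 bins that differed by 1.5-fold or more. Blocks on the stripe itself were not counted. Blocks were slid bin by bin, so neighbouring blocks overlap and their counts are not counts of separate changes. Of 35240 blocks, 558 (1.58%) were higher in i4i5 by that fold and 393 (1.12%) were lower. Blocks between the domain and the stretch above it made up 498 of the 558 higher ones, 6.18% of the 8055 blocks of that class, and none of that class was lower by that fold. Blocks between the domain and the stretch below it made up 283 of the 393 lower ones, 3.25% of 8706, and 51 more lay within the domain, 1.46% of 3486. Within the stretch above the domain no block passed the fold in either direction. Between the stretches below and above the domain 49 blocks were higher and 49 lower, 0.62% each of 7907. Those blocks rest on few contacts.

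Both G4 maps that keep i4 and i5 had fewer such blocks. With all maps thinned to the i4i5 total, a choice made after the data were seen, limb ZRSreg over wild type had 160 higher blocks (0.459%) and 238 lower ones (0.682%). The Lmbr1 promoter deletion had 209 higher blocks (0.597%) and 176 lower ones (0.503%). At that depth i4i5 over wild type had 982 higher blocks (2.8%) and 469 lower ones (1.34%). All of these ratios share the wild type map. Contact totals per bin were low in i4i5 from 860 to 900 kb, with a log2 share of contacts 0.23 to 0.53 below wild type (3069 to 5825 contacts in i4i5, against 10590 to 17541 in wild type), where the SD over all bins was 0.10. Without these 5 bins, 535 of 32927 blocks were higher and 148 were lower.

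Single bin pairs gave the same layout with more counting noise. Of 36452 pairs at 50 kb or more with signal in both maps, 52.0% were higher in i4i5, 7.76% were higher by 2-fold or more and 6.68% were lower by 2-fold or more. Between the domain and the stretch above, 69.7% of 7976 pairs were higher, with a median log2 ratio of 0.34. Within the domain 36.5% of 3910 pairs were higher, with a median of -0.11. Pairs from the stretch below to the domain had a median of -0.05, and pairs from below to above one of 0.02.

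**Figure D2:**
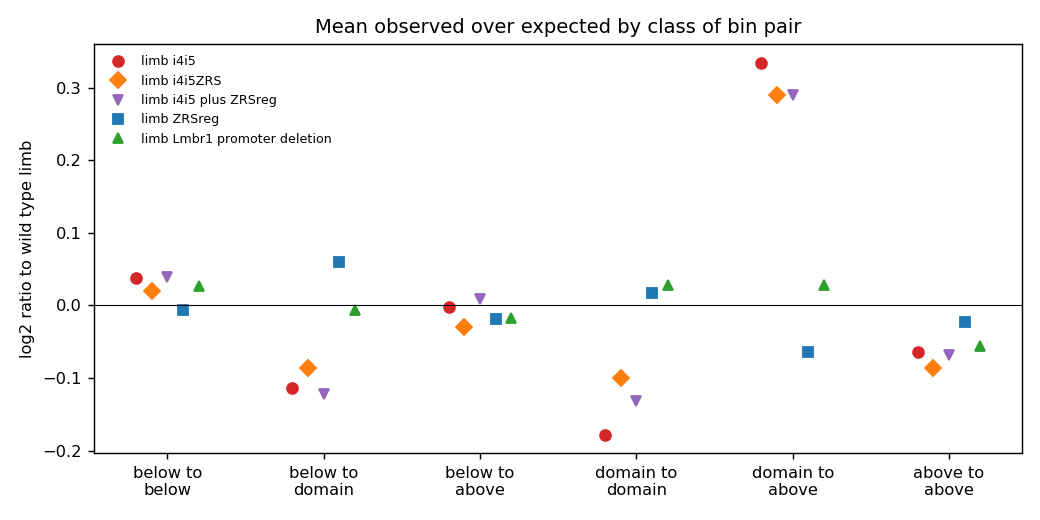
Log2 ratio to wild type limb (y axis) of the mean observed over expected at 50 kb or more, by class of bin pair (x axis), where below, domain and above are the stretches set by the borders. Each point is 1 deletion map; all share the wild type map. The i4i5 maps are near 0.3 for domain to above, and ZRSreg and the Lmbr1 promoter deletion lie within 0.07 of 0 in every class.

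The deletions that include i4 and i5 can be set side by side by class of bin pair. From the domain to the stretch above, the mean log2 ratio to wild type was 0.33 in i4i5, 0.29 in i4i5ZRS, which also lacks a CTCF site named for the ZRS, and 0.29 in i4i5 plus ZRSreg. It was -0.06 in ZRSreg and 0.03 in the Lmbr1 promoter deletion. Within the domain it was -0.18, -0.10 and -0.13 in the 3 maps that lack i4 and i5, and 0.02 and 0.03 in ZRSreg and the Lmbr1 promoter deletion. The plot of ratios by class shows that the 3 maps lie on the same side of 0 in 5 of the 6 classes. The exception is below to above, where i4i5 was at -0.00 (interval -0.02 to 0.01).

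The gain across the upper border was of like size in 3 equal segments of the domain. Its lower segment (-20 to 280 kb), which starts at Shh, met the 500 kb above the border at a mean of 1.10 in i4i5 and 0.89 in wild type, a log2 ratio of 0.31 (interval 0.28 to 0.33). The middle segment, which is gene desert, met it at 0.80 in i4i5 and 0.62 in wild type (0.37, 0.35 to 0.40). The upper segment, with Rnf32 and most of Lmbr1, met it at 0.81 in i4i5 and 0.64 in wild type (0.34, 0.32 to 0.36). Counted by bin, 90 of the 93 domain bins had more contact with this flank in i4i5, where 48.2% of all 280 bins did. The 3 exceptions were the last bins before the border, 880 kb (-0.09), 890 kb (-0.13) and 900 kb (-0.10). They lie among the 5 bins with low contact totals in i4i5.

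The gain also reached the end of the captured region. The 10 bins next to the border met the domain with a log2 ratio of 0.37, the next 20 with 0.33, the next 20 with 0.32 and the remaining 39 bins, from 1420 to 1800 kb, with 0.33. All 89 bins above the border had more contact with the domain in i4i5, with log2 ratios between 0.13 and 0.52, against 36.1% of all bins. The same 89 bins had a median of -0.07 in ZRSreg and 0.01 in the Lmbr1 promoter deletion. Contacts among these 89 bins were slightly lower in i4i5 (1.08 in i4i5 and 1.13 in wild type, log2 ratio -0.06, interval -0.07 to -0.05). That ratio to wild type was also -0.06 in the Lmbr1 promoter deletion, which keeps i4 and i5, and -0.02 in ZRSreg.

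The loss within the domain was deepest between its ends, among the pairings of its segments. Between the lower and the upper segment the mean was 1.73 in i4i5 and 2.17 in wild type, a log2 ratio of -0.33 (interval -0.35 to -0.31). From the middle to the upper segment the ratio was -0.18, and from the lower to the middle segment it was -0.09. Within the middle segment it was 0.01 (interval -0.01 to 0.03), within the upper segment 0.01 (interval -0.02 to 0.04) and within the lower segment -0.06.

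**Figure D3:**
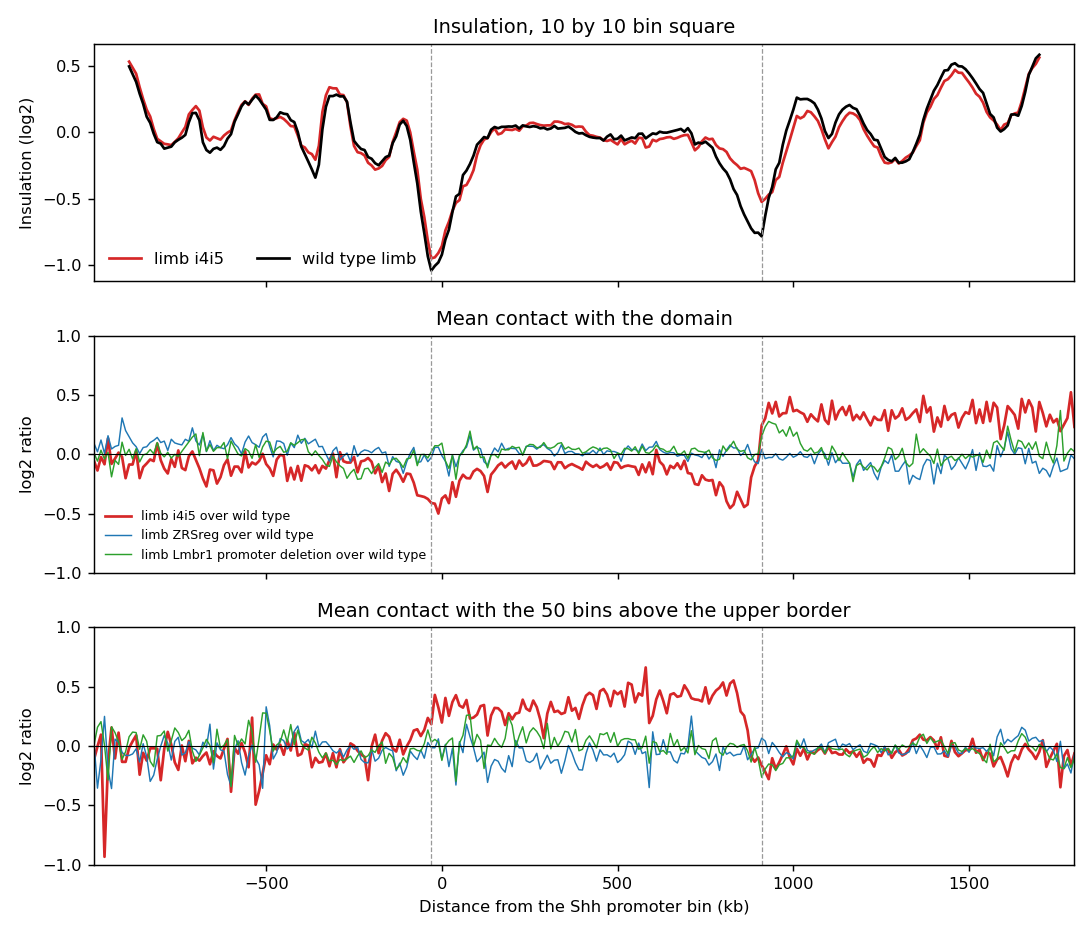
Insulation by bin in limb i4i5 and wild type limb (top), and the log2 ratio to wild type of each bin's mean observed over expected with the domain (middle) and with the 50 bins above the upper border (bottom), against distance from the Shh promoter bin. In the lower panels red is i4i5, and the thin lines are the 2 G4 deletions that keep i4 and i5. The i4i5 line lies above 0 past the upper border in the middle panel and inside the domain in the bottom panel.

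Bins at the 2 ends of the domain lost the most contact with the rest of it. Mean contact with the domain was lowest relative to wild type at -10 kb, in the Shh promoter window (log2 ratio -0.50), followed by 820 kb (-0.45), 860 kb (-0.44), 830 kb (-0.42) and 870 kb (-0.42). The last 3 lie in the ZRS window, and the bins at 860 and 870 kb are among those with low contact totals in i4i5. In the middle segment all 31 bins were lower, between -0.17 and -0.06. Only 1 of the 93 domain bins, at 610 kb, had more contact with the domain in i4i5 (0.04). The largest gains with the upper flank were at 580, 830, 800, 530 and 820 kb, between 0.53 and 0.66, so the bins at 820 and 830 kb appear in both lists.

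Insulation was weaker in i4i5 over a run of 14 bins from 790 to 920 kb, where it lay more than 0.1 above wild type. At 880 kb it was -0.29 in i4i5 and -0.72 in wild type, and at 870 kb it was -0.28 in i4i5 and -0.67 in wild type. The 5 largest differences, from 860 to 900 kb, fall on the 5 bins with low contact totals in i4i5. The most negative differences were at 980, 990, 1020, 1010 and 1000 kb. At 980 kb insulation was -0.15 in i4i5 and 0.01 in wild type. The differences had an SD of 0.08 over the 260 bins in i4i5, against 0.05 in ZRSreg and 0.07 in the Lmbr1 promoter deletion, whose largest differences in size were 0.19 and 0.22. At the upper border bin the i4i5 difference was 0.26 against wild type, and 0.070 against the Lmbr1 promoter deletion. It was 0.53 without the bins from 860 to 900 kb and 0.14 with counts that were not balanced.

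**Figure D4:**
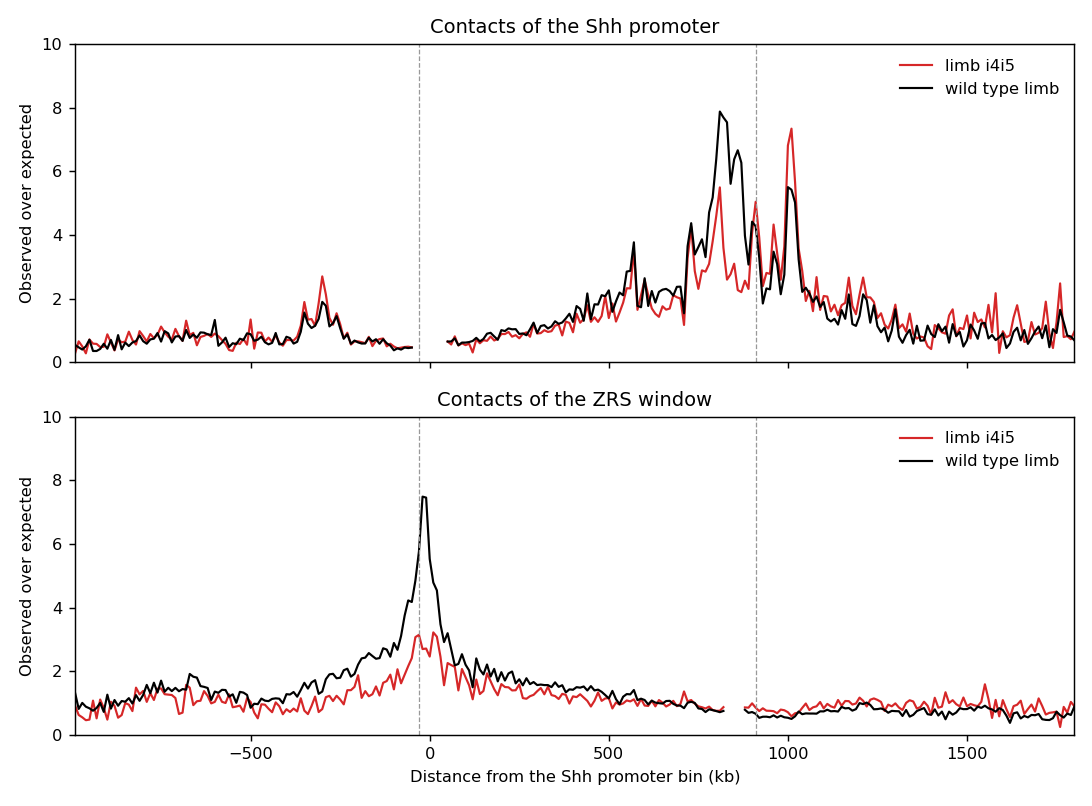
Observed over expected of each bin with the Shh promoter (top, bins within 50 kb left out) and with the ZRS window (bottom, its own bins left out), in limb i4i5 (red) and wild type limb (black), against distance from the Shh promoter bin. Dashed lines are the borders. In i4i5 the promoter's peak at 810 to 870 kb is lower and its peak at 1010 kb is higher, and the ZRS window's peak at Shh is lower.

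The Shh promoter met the ZRS window less in i4i5, with 285 contacts in i4i5 and 1574 in wild type and a log2 ratio of -1.33 (interval -1.52 to -1.15). Bin by bin, the loss deepened at 820 kb, was deepest at 830, 860 and 870 kb and had faded at 900 kb. At 810 kb the level was 5.49 in i4i5 and 7.88 in wild type, a log2 ratio of -0.52 (204 contacts in i4i5 and 626 in wild type). At 830 kb it was 2.59 in i4i5 and 7.54 in wild type (-1.54, interval -2.02 to -1.09). At 860 kb it was 2.27 in i4i5 and 6.66 in wild type (-1.56), and at 870 kb it was 2.20 in i4i5 and 6.27 in wild type (-1.51). At 900 kb it was 4.06 in i4i5 and 4.42 in wild type (-0.12, interval -0.48 to 0.23). The peak at 810 kb thus stayed the promoter's highest level within the domain in i4i5. Wild type had a second peak at 860 kb, where i4i5 had none, with levels of 2.77, 3.10 and 2.27 at 840, 850 and 860 kb. The bins at 860 and 870 kb are among those with low contact totals in i4i5, and their values rest on 47 and 23 contacts in i4i5.

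From the border upward the promoter's levels were higher in i4i5. At the border bin itself the level was 5.04 in i4i5 and 4.27 in wild type (0.24, interval -0.19 to 0.66, which includes 0). Of the 50 bins above it, 44 were higher, against 51.8% of all bins in this profile. Averaged over them the promoter level was 2.20 in i4i5 and 1.83 in wild type (0.26). Inside the domain 4 of 24, 4 of 31 and 2 of 31 bins of the lower, middle and upper segment were higher, at separations of 50 kb or more.

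By gene, the promoter's contacts were higher in i4i5 with all 4 genes above the border. Mnx1, a homeobox gene of motor neurons and pancreas, was met at 7.34 in i4i5 and 5.42 in wild type (192 and 265 contacts, log2 ratio 0.44, interval 0.16 to 0.71). Ube3c, a ubiquitin ligase gene, was met at 1.88 in i4i5 and 1.45 in wild type (0.37, 0.20 to 0.55). Dnajb6, a chaperone gene, was met at 1.27 in i4i5 and 0.97 in wild type (0.40, 0.12 to 0.67). Nom1, a nucleolar protein gene, was met at 3.22 in i4i5 and 2.66 in wild type (0.28, 0.07 to 0.48). These 4 ratios lay between -0.14 and 0.15 when ZRSreg or the Lmbr1 promoter deletion was set against wild type.

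With genes inside the domain the promoter's contacts were lower. The body of Lmbr1, a gene for a membrane protein whose intron holds the ZRS, was met at 3.35 in i4i5 and 5.55 in wild type (-0.73, -0.82 to -0.64). Rnf32, a ring finger gene next to Lmbr1, was met at 3.08 in i4i5 and 3.81 in wild type (-0.31, -0.47 to -0.14). The desert interior (100 to 720 kb) was met at 1.35 in i4i5 and 1.58 in wild type (-0.23, -0.28 to -0.18).

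Below Shh the promoter's contacts differed less than above the upper border. With the lower flank, at 50 kb or more, the log2 ratio was 0.13 (interval 0.07 to 0.19). Of its 49 bins, 34 were higher in i4i5, against 51.8% of all bins in this profile. Insig1 was met at 0.70 in i4i5 and 0.78 in wild type (-0.16, -0.54 to 0.21). Rbm33 was met at 0.55 in i4i5 and 0.52 in wild type (0.08, -0.02 to 0.18), and Cnpy1 at 0.99 in i4i5 and 0.94 in wild type (0.08, -0.09 to 0.24). The homeobox gene En2 was an exception, at 2.70 in i4i5 and 1.90 in wild type (0.51, 0.23 to 0.78). The same ratio was 0.42 for ZRSreg over wild type, and 0.09 when i4i5 was set against ZRSreg, and it was 0.31 for i4i5ZRS and 0.45 for i4i5 plus ZRSreg over wild type. In the Lmbr1 promoter deletion it was -0.02.

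**Figure D5:**
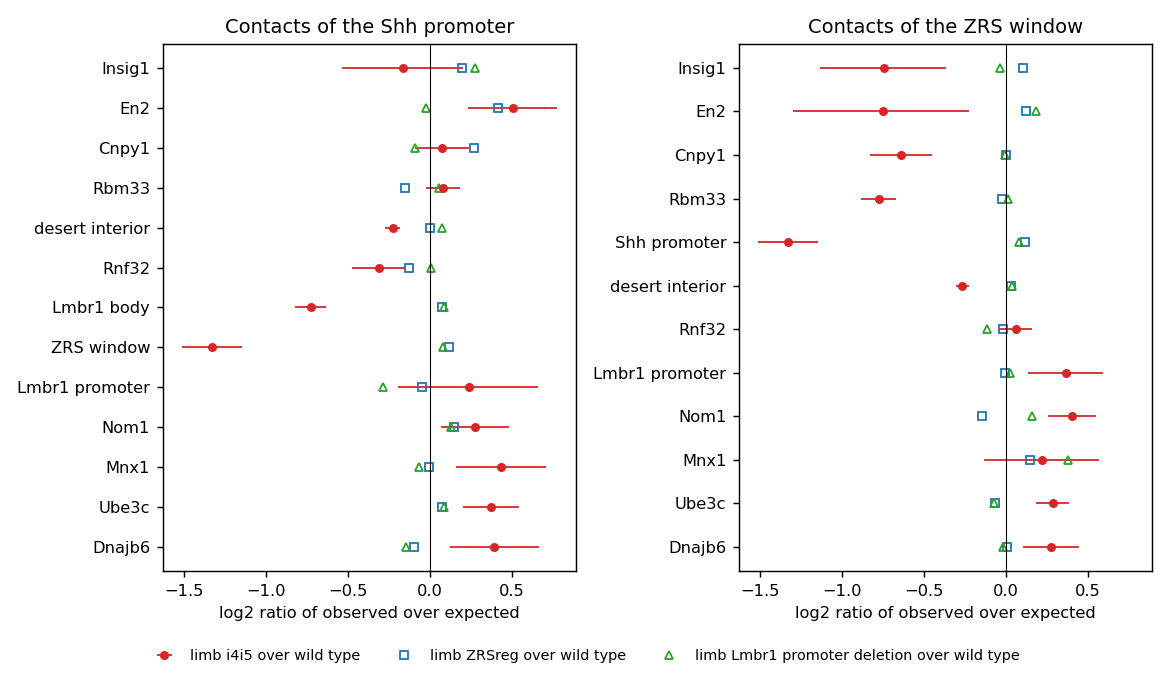
Log2 ratio to wild type limb of the contacts of the Shh promoter (left) and of the ZRS window (right) with each named window, ordered by position from the lower to the upper end of the locus. Filled points with 95% counting intervals are i4i5; open points are the G4 deletions that keep i4 and i5. The i4i5 points of the ZRS window are below 0 from Insig1 to the desert and above 0 from the Lmbr1 promoter upward.

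Seen from the ZRS window, the loss was not limited to Shh. It met Rbm33, an RNA-binding protein gene just beyond the lower border, at 1.78 in i4i5 and 3.04 in wild type (925 and 3610 contacts, log2 ratio -0.78, interval -0.88 to -0.67). Cnpy1 was met at 1.22 in i4i5 and 1.90 in wild type (-0.64, -0.83 to -0.45). En2 was met at 0.81 in i4i5 and 1.36 in wild type (-0.75, -1.30 to -0.23, from 40 and 128 contacts). Insig1, a gene of sterol sensing, was met at 0.76 in i4i5 and 1.27 in wild type (-0.74, -1.13 to -0.36). All 4 of these genes are outside the Shh domain, and in ZRSreg and the Lmbr1 promoter deletion their ratios to wild type lay between -0.04 and 0.18. Some alternatives were added for these pairs after the data were seen. They were thinned wild type contacts, ZRSreg or the Lmbr1 promoter deletion as reference, no bins from 860 to 900 kb, and only pairs with signal in both maps. Over these, the Rbm33 ratio lay between -0.81 and -0.68 and that of En2 between -0.93 and -0.48. The median per separation, scaling by the map total and unbalanced counts are not among them.

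The loss along the lower flank was shared by a stripe of bins. The 11 bins from 800 to 900 kb all met the 500 kb below the lower border with log2 ratios under -0.4. No other domain bin did, at this cut-off, which was not set in advance. The lowest was at 880 kb, at 1.00 in i4i5 and 1.75 in wild type (-0.80, from 321 and 1375 contacts). That bin and 4 more of the 11, from 860 to 900 kb, are those with low contact totals in i4i5. Among the other bins the ratio was lowest at 830 kb (-0.74). In the same 11 bins the ratio was between -0.04 and 0.07 in ZRSreg and between -0.01 and 0.10 in the Lmbr1 promoter deletion. By segments of the domain, the upper segment met the lower flank at 1.11 in i4i5 and 1.42 in wild type (-0.36, -0.39 to -0.34). The middle segment met it at 0.83 in i4i5 and 0.82 in wild type (0.02, -0.00 to 0.04), and the lower segment at 0.66 in i4i5 and 0.62 in wild type (0.09, 0.07 to 0.11).

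Inside the domain the ZRS window's loss was deepest next to Shh. At -20 kb its level was 2.69 in i4i5 and 7.48 in wild type (-1.47), and at 0 kb it was 2.46 in i4i5 and 5.53 in wild type (-1.17). At 50 kb it was 2.25 in i4i5 and 3.19 in wild type (-0.50). The bins of the middle segment had ratios from -0.78 to 0.01. The lowest of them was at 450 kb, at 0.89 in i4i5 and 1.53 in wild type (-0.78, interval -1.10 to -0.48). Averaged over the lower segment the level was 1.80 in i4i5 and 2.73 in wild type (-0.60), and over the middle segment the log2 ratio was -0.28. None of the 31 bins of the lower segment and 1 of the 31 of the middle segment were higher in i4i5, against 41.8% of all bins in this profile. In the upper segment 18 of 26 bins were higher. Averaged over 3 bins, the ratio was above 0 from 690 kb to the window and from the window up to 1570 kb.

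Above the ZRS window its contacts were higher in i4i5. It met the Lmbr1 promoter at 0.85 in i4i5 and 0.66 in wild type (0.37, 0.13 to 0.60). Nom1 was met at 0.75 in i4i5 and 0.56 in wild type (0.41, 0.26 to 0.55), Ube3c at 0.98 in i4i5 and 0.80 in wild type (0.28, 0.18 to 0.38) and Dnajb6 at 0.87 in i4i5 and 0.72 in wild type (0.28, 0.11 to 0.45). For Mnx1 the interval included 0 (0.58 in i4i5 and 0.50 in wild type, 0.22, -0.14 to 0.57). Of the 50 bins above the border, 47 were higher, against 41.8% of all bins in this profile. In the named gene windows these levels stayed under 1, and the highest of the 50 bins was at 1.17 in i4i5.

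Several other windows followed the same layout, and some did not. Across the upper border Rnf32 met Ube3c at 0.93 in i4i5 and 0.67 in wild type (0.47, 0.36 to 0.59) and Nom1 at 0.71 in i4i5 and 0.52 in wild type (0.45, 0.27 to 0.63). The desert interior met Nom1 at 0.70 in i4i5 and 0.51 in wild type (0.45, 0.38 to 0.51). It met Ube3c at 0.82 in i4i5 and 0.63 in wild type (0.38, 0.34 to 0.42). Against the Lmbr1 promoter deletion the ratio of Nom1 with the desert was 0.19 and that of Mnx1 with it 0.13, against 0.39 for Mnx1 over wild type. The Lmbr1 body gained little with Ube3c (0.12, 0.06 to 0.18). Its interval with Mnx1 included 0 (0.09, -0.10 to 0.29), as did that of Rnf32 with Mnx1 (0.24, -0.16 to 0.62). The Lmbr1 promoter, in the border bin, met Ube3c less, at 1.27 in i4i5 and 1.67 in wild type (-0.40, -0.59 to -0.20). That ratio was -0.03 against the Lmbr1 promoter deletion. Across the lower border the Lmbr1 body met Rbm33 at 1.72 in i4i5 and 2.67 in wild type (-0.63, -0.69 to -0.58).

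Most contacts between genes below and above the domain had intervals that include 0. The highest of these was between En2 and Mnx1, at 11.96 in i4i5 and 11.52 in wild type (124 and 269 contacts, log2 ratio 0.05, interval -0.26 to 0.37). Rbm33 met Nom1 at 2.38 in i4i5 and 2.45 in wild type (-0.04, -0.14 to 0.07), and Cnpy1 met Mnx1 at 3.18 in i4i5 and 3.06 in wild type (0.06, -0.20 to 0.31). Rbm33 met Dnajb6 more in i4i5, at 1.62 in i4i5 and 1.43 in wild type (0.18, 0.07 to 0.29). It also met Ube3c more, at 2.12 in i4i5 and 1.98 in wild type (0.10, 0.04 to 0.17). Cnpy1 met Nom1 less, at 1.65 in i4i5 and 1.92 in wild type (-0.22, -0.40 to -0.04, from 367 and 811 contacts). Insig1 and Mnx1 had a ratio of -0.41, from 32 and 86 contacts, with an interval of -1.04 to 0.19. Of the 87 pairs of windows with at least 25 contacts in both maps, 7 were lower in i4i5 by 1.5-fold or more (8.05%) and none was higher by that fold (0.0%). The windows overlap in part and differ in size, so they are not independent. The 7 pairs were the Shh promoter with the ZRS window and with the Lmbr1 body, the ZRS window with Rbm33, Cnpy1, En2 and Insig1, and the Lmbr1 body with Rbm33.

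The 5 lowest and 5 highest blocks of 5 by 5 bins place the extremes of the map. The lowest was centred on -20 and 850 kb (chr5:28770001-28780000 and chr5:29640001-29650000), at 2.81 in i4i5 and 6.22 in wild type, the corner where the Shh end and the ZRS end of the domain meet. The next lay at -970 and 960 kb, from 38 contacts in i4i5 and 107 in wild type. The others joined -70 with 880 kb (-0.93), -170 with 850 kb (-0.91) and -520 with 820 kb (-0.88), all on the stripe. The highest block joined 650 with 1570 kb, at 1.16 in i4i5 and 0.51 in wild type (1.17, 0.74 to 1.60, from 91 and 97 contacts). The same block was 0.57 above wild type in ZRSreg and 0.30 above it in the Lmbr1 promoter deletion. The other high blocks were at -520 with 1580 kb, 590 with 1520 kb, 20 with 1590 kb and 130 with 1720 kb, with log2 ratios of 0.82 to 0.91 from 29 to 122 contacts in i4i5. The low and the high block centred at -520 kb lie in a stretch, -580 to -500 kb, with reduced contact totals in i4i5. The log2 shares of contacts of its bins were -0.46 to -0.01 relative to wild type, lowest at -500 kb.

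Outside the named stretches of the 2 profiles, the largest changes rested on fewer contacts for the promoter than for the ZRS window. The promoter's largest rise over 3 bins was at 1570 kb, at 1.64 in i4i5 and 0.77 in wild type, from 26 contacts in i4i5 and 25 in wild type. Its largest fall was at 1390 kb, at 0.56 in i4i5 and 0.91 in wild type, with 33 contacts in i4i5. The ZRS window's largest rise was at 1450 kb, at 1.14 in i4i5 and 0.62 in wild type (141 and 196 contacts, log2 ratio 0.89). Of its 5 largest falls, 4 lay between -30 and 0 kb and the other at -340 kb, at 0.77 in i4i5 and 1.58 in wild type.

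Contacts were spread over longer separations in i4i5, a difference that the scaling by separation removes. Pairs of neighbouring bins held 12.1% of the signal in i4i5 and 13.5% in wild type, and separations of 500 to 990 kb held 11.3% in i4i5 and 10.0% in wild type. In the G4 maps with i4 and i5 the same shares were 15.6% and 15.8% for neighbouring bins, and 9.46% and 9.07% for 500 to 990 kb. In i4i5ZRS and in i4i5 plus ZRSreg they were 14.8% and 15.1% for neighbouring bins, and 9.04% and 10.2% for 500 to 990 kb. The lower share of neighbouring bins in i4i5 was thus not seen in the other deletion maps, those without i4 and i5 included. Whether the longer separations have a part in the square of gained contacts was not tested beyond the values given with each map divided by its total.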

How the data were processed

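Limb bud chromatin was cut with DpnII, ligated and enriched for the Shh region, per the labels' protocols. Tools named in the submitters' processing notes are cutadapt 1.15, Bowtie2 2.3.4.1, Juicer and SAMtools, with mm9 as genome build. Their settings and the treatment of duplicate pairs were not given in the sources used here. Each deposited file holds 1 signal value per listed pair of 10 kb bins. The authors merged the samples of a group, kept reads at MAPQ 30 and balanced the map by the KR method, per the file names. KR balancing brings all bins of a map to 1 total (7602 in i4i5, 18368 in wild type), which rescales bins with few contacts. Unlisted pairs were set to 0.

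Whole contact counts were recovered from the deposited signal, with 100% of values within 0.01 of a whole number in all 6 limb maps. Observed over expected used the mean signal per separation of each map, zeros included. Intervals are exact conditional binomial intervals (95%) on the contacts of both maps, placed around the log2 ratio. They ignore that balancing weights contacts unequally. Blocks are means over 5 by 5 bins, slid bin by bin so that neighbouring blocks overlap. Flanks are the 50 bins outside each border, and pairs within the domain are at 50 kb or more. With 1 merged map a group, values are described and not tested. The features to be named were all pairs of windows, the 5 highest and 5 lowest blocks and bins of each measure, and the profile bins from 750 to 1050 kb. Of the profile bins, a selection made after their values were seen is printed. Members and windows were chosen with earlier results of these data known. The scripts were tested on simulated data with Python 3.11.15, numpy 2.4.6, scipy 1.17.1 and pandas 2.3.3.

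Alternatives were the median per separation, pairs with signal in both maps, thinned wild type contacts, the ZRSreg or Lmbr1 promoter deletion map as reference, scaling by the map total, unbalanced counts, leaving out 860 to 900 kb, and other windows, flanks, squares and blocks. The ES cell and midbrain maps were not used here.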

Additional observations from a re-analysis of the deposited data

How the results depend on the processing

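No paired analysis was possible because the samples were merged before deposit, and for the same reason no sample could be left out in turn. The ratios of the Shh promoter with the ZRS window (-1.33), of the domain with the upper flank (0.34), within the domain (-0.18) and of the ZRS window with the desert interior (-0.27), and the insulation difference at the upper border (0.26), kept their sign under every alternative tried. With only pairs that have signal in both maps, none of these 5 left its counting interval.

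With the median per separation in place of the mean the first 4 were -1.59, 0.24, -0.25 and -0.35. With signal divided by the map total the domain ratios were 0.46 and -0.069 and the ZRS window with the desert was at -0.13. The domain with the lower flank was at -0.14 and reversed there, to 0.072. Against ZRSreg the domain ratios were 0.41 and -0.20, and against the Lmbr1 promoter deletion 0.31 and -0.21, with an insulation difference of 0.070. Without the bins from 860 to 900 kb the domain ratios were 0.36 and -0.17 and the insulation difference was 0.53. With counts that were not balanced they were 0.36, -0.16 and 0.14, and the ZRS window with the desert was at -0.39. A window of 800 to 900 kb gave -0.89 for the promoter. Squares of 5 and 20 bins gave insulation differences of 0.14 and 0.32.

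The number of blocks measured differed between alternatives. The count of higher blocks (558 of 35240) was 982 of 35013 with wild type thinned, 1248 of 35238 against ZRSreg and 1470 of 32521 with blocks of 3 by 3 bins. The count of lower blocks (393 of 35240) was 680 of 35240 against the Lmbr1 promoter deletion and 148 of 32927 without 860 to 900 kb. It was 747 of 35240 with unbalanced counts and 640 of 32521 with blocks of 3 by 3 bins. The causes were not tested. With the median the counts were 381 higher and 557 lower, and with unbalanced counts 373 higher, each of 35240 blocks. Depth limits single pairs most, at a median of 10 contacts in i4i5.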
